A study of Mus musculus with 21 samples.

Results

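The genes described here encode the SR proteins, the heterogeneous nuclear ribonucleoproteins (hnRNPs) and the CLK kinases, the regulators that decide which exons of a transcript are kept. They were chosen by symbol alone, as every gene named Srsf followed by a number, every gene whose symbol begins with Hnrnp, and Clk1 to Clk4, without pseudogene and antisense entries. This gave 35 of the 53738 gene symbols in the table, made up of 11 SR genes, 20 hnRNP genes and 4 CLK genes. RNA-seq of bulk quadriceps, the large extensor muscle of the thigh, was carried out in adult male wildtype C57/Bl6 mice in 7 groups of 3 libraries. Sedentary mice neither trained nor exercised. Untrained and trained mice ran once on a treadmill until exhausted and were killed 0 h, 6 h or 72 h later, and the trained mice had first had 12 weeks of voluntary wheel running. No group of trained mice without the bout was analysed here, so that training and the bout cannot be told apart in a comparison of trained with sedentary muscle. Levels are given as TPM, the abundance of transcripts per length, scaled so that libraries have nearly the same total, and the depth of the libraries is unknown.

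For all 53738 symbols, replicate 1 of the untrained 0 h group had exactly the values of replicate 1 of the trained 0 h group, so that the 21 columns are 20 distinct libraries. To which 0 h group this shared library belongs is not known. Therefore, the 0 h groups are given as deposited, without the shared library, and joined into 1 group of 5 distinct libraries. All groups were compared with the same 3 sedentary libraries, and none of the comparisons with sedentary muscle is independent of the others. Muscle fibre markers summed to 86978 to 112925 TPM per library, while neutrophil and lymphocyte markers summed to at most 1.72 TPM each. The mitochondrial genome took 37.7% to 48.0% of the TPM of a library, with group means of 44.5% in sedentary, 39.2% in untrained 0 h and 38.9% in trained 0 h muscle, and nuclear genes shared the remainder. Bulk TPM cannot tell fewer cells of a type from less RNA per cell.

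SR proteins carry an RNA recognition motif and a tail rich in arginine and serine, bind enhancer sequences in exons and as a rule help the spliceosome to include them. The hnRNPs coat nascent transcripts and often act in the opposite direction, by silencing exons, and several of them also escort mRNA to the cytoplasm. CLK kinases phosphorylate the serines of SR proteins inside the nucleus and release them from nuclear speckles, whereas SRPK kinases do so mainly in the cytoplasm. Many SR genes hold down their own level by splicing in a poison exon, which sends the transcript to nonsense-mediated decay (NMD). In the GENCODE annotation of the mouse, all 11 SR genes and all 4 CLK genes have at least 1 transcript of the NMD class, with a median of 21 and 13 such transcripts per gene, and 14 of the 20 hnRNP genes do, with a median of 4.5. Together, 82.9% of the 35 regulators have one, against 79.8% of 9691 tested protein-coding genes, where the median is 4. The TPM of a gene adds up all of its transcripts, so that productive mRNA and decay products are not separated in the values below.

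Promoter sequences are shown for the 4 genes with the largest log2 fold change directly after the bout (both 0 h groups joined), as the 250 bases before the start of transcription in RefSeq on GRCm38.p6, 5′ to 3′ on the strand of the gene. Capitals mark a CRE variant (TGACGTAA, a relative of the cyclic AMP response element), a CCAAT box (CCAAT) or a GC box (GGGCGG), each searched on both strands. In Hnrnpa3, a pair of GC boxes overlap, and no other marked motifs do.
Srsf3: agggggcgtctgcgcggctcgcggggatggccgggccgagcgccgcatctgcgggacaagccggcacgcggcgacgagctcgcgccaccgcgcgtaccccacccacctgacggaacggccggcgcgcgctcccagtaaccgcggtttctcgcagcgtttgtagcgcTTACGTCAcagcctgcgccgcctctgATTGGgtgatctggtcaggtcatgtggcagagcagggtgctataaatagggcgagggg
Srsf7: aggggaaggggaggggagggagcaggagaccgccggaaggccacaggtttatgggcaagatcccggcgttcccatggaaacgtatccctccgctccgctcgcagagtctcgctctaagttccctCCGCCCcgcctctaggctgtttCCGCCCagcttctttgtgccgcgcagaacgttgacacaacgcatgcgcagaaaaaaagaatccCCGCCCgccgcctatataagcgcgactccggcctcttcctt
Hnrnpa2b1: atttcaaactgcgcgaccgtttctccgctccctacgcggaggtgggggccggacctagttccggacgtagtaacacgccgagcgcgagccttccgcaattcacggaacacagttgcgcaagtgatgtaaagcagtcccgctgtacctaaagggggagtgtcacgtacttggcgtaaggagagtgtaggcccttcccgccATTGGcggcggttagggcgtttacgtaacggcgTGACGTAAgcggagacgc
Hnrnpa3: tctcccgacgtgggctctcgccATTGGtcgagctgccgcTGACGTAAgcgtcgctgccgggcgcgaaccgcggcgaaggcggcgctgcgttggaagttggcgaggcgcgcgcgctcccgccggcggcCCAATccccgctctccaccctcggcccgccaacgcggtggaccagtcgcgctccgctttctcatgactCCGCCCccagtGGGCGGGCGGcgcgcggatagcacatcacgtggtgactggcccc
Srsf3 lies on chromosome 17 with its window at chr17:29032410-29032659, plus strand, and Srsf7 on the same chromosome with its window at chr17:80207306-80207555, minus strand. The windows of Hnrnpa2b1 and Hnrnpa3 lie at chr6:51469895-51470144, minus strand, and chr2:75659009-75659258, plus strand. On GRCm39, the build of the deposited files, the annotated genes span chr17:29251321-29262347 (Srsf3), chr17:80507501-80514879 (Srsf7), chr6:51435248-51448049 (Hnrnpa2b1) and chr2:75489605-75499751 (Hnrnpa3). The letters of the CRE variant stand 84 bases before the start in Srsf3, 18 bases before it in Hnrnpa2b1 and 211 bases before it in Hnrnpa3, and the Srsf7 window holds GC boxes only. Of 44 promoters found for 32 of the 35 regulators, 4 (9.09%) hold the CRE variant, against 0.447% of all 32851 promoters in the table and 0.738% of the promoters of tested genes. These 4 promoters belong to 3 genes, Srsf3, Hnrnpa2b1 and Hnrnpa3, all among those shown above. The motif was added to the search after the sequences shown had been read. The share is therefore a description of the letters alone and no test of enrichment. The canonical CRE (TGACGTCA) is in the promoter of 1 regulator, Clk4. This is 2.27% of the regulators' promoters, against 2.56% of those of tested genes and 1.55% of all promoters. GC boxes are in 81.8% of the regulators' promoters and in 57.4% of those of tested genes, and CCAAT boxes in 47.7% and 34.9%. A heat shock element (GAANNTTC) is in 9.09% and 5.10%, and an ETS site (CCGGAAGT) in 13.6% and 6.04%.

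Levels spanned a wide range in quadriceps. On the TPM scale, Hnrnpa2b1 was the highest regulator with a mean of 164 over the 21 columns, followed by Hnrnpk with 70.7, Srsf5 with 51.2, Hnrnph1 with 47.5, Hnrnpa3 with 44.2 and Srsf3 with 39.0. The lowest were Hnrnpll with 4.48, Srsf9 with 4.49 and Clk2 with 4.98. Srsf12 reached at most 0.0132 TPM in any library and was not tested. The other 34 passed a filter of a mean of at least 1 TPM, as did 11819 genes in all. The 20 hnRNP genes summed to 616 ± 43.4 TPM in sedentary muscle, the SR genes to 189 ± 10.6 and the CLK genes to 69.0 ± 7.22 (mean ± SD, n = 3). Replicates of most regulators lay close together. The median pooled SD on the log2 scale was 0.112, against 0.150 over all tested genes.

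Directly after the bout, several SR and hnRNP genes were higher by modest amounts, led by Hnrnpa2b1 and Srsf7. Clk1 was the only CLK kinase past the test, and Srsf5 was lower without passing it. None of the 34 tested regulators passed both thresholds of the study, which asked for 1.5-fold together with an adjusted p below 0.05, in untrained muscle, in trained muscle or in the joined 0 h libraries (limma with Benjamini-Hochberg adjustment over all tested genes). Among all genes, 3.59%, 3.74% and 3.89% did so in these 3 comparisons. By an unadjusted p below 0.05, limma counted 15, 20 and 18 of the 34, and 24.2%, 27.2% and 28% of all genes. Smaller changes were present. Counting an adjusted p below 0.05 with any fold, 5 regulators rose in untrained muscle, 8 in trained muscle and 10 in the joined libraries, while 0 fell. Of all genes, 6.49%, 8.68% and 10.5% were higher by this rule and 0.973%, 0.685% and 1.11% were lower. The median log2 fold change of the 34 regulators was 0.19 in untrained, 0.24 in trained and 0.19 in joined muscle, and that of all tested genes was 0.10, 0.13 and 0.11. Under the median-of-ratios scaling described below, the medians of the regulators were 0.10, 0.11 and 0.08 and those of all genes 0.01 in each comparison, and under the rescaling without the mitochondrial genome they were 0.02, 0.06 and 0.03 and -0.06, -0.04 and -0.04. Genes named from here on for passing the test without a fold threshold, and Srsf3 for its size of change, were picked after their values were seen.

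**Figure D1:**
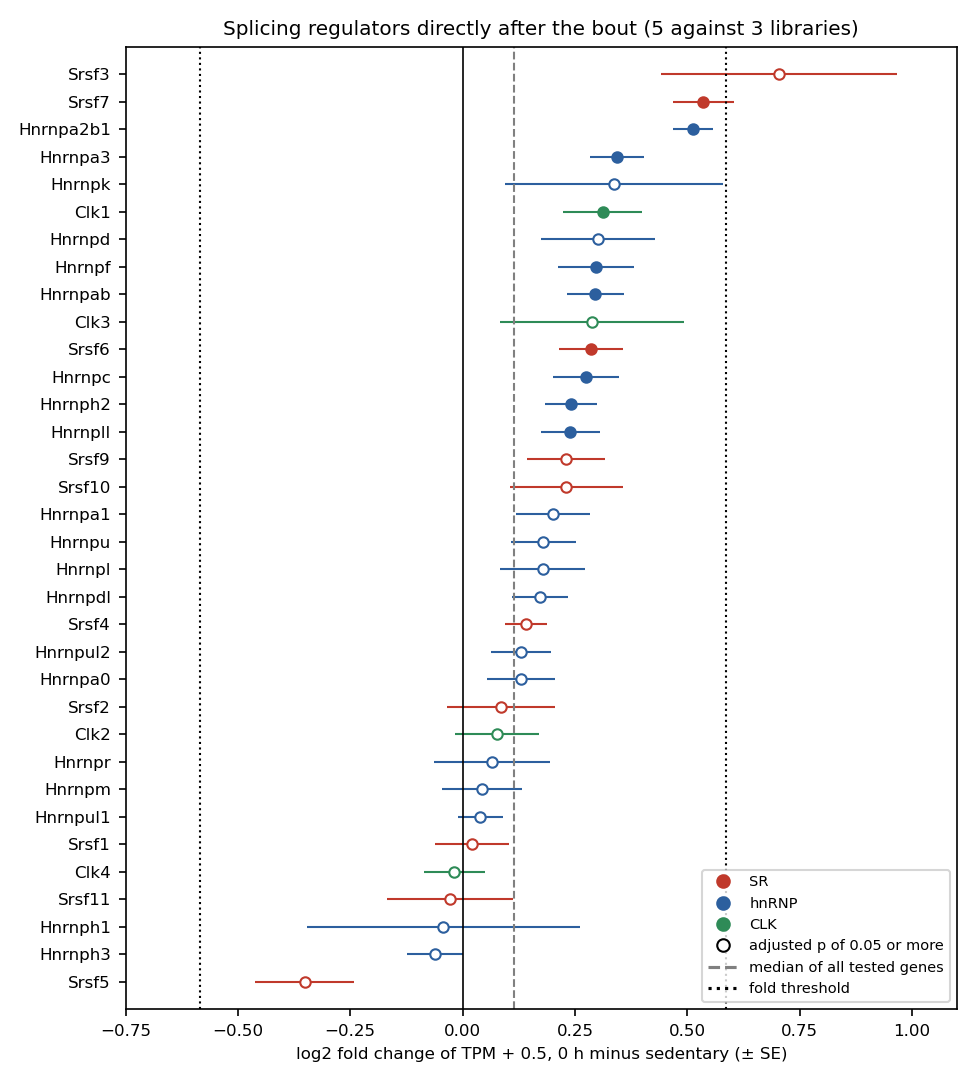
Log2 fold change of TPM + 0.5 (x axis, ± SE) of the 34 tested regulators (y axis) in the 5 distinct 0 h libraries minus the 3 sedentary libraries. Filled points passed an adjusted p below 0.05, the dashed line is the median of all tested genes at 0.11, and the dotted lines mark the 1.5-fold threshold. The 10 filled points all lie to the right of the dashed line, Srsf3 lies farthest right with a wide error, and Srsf5 lies farthest left.

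Hnrnpa2b1, which binds silencer elements and carries mRNA along the cytoskeleton, rose with the smallest error of all regulators. Sedentary libraries held 145, 138 and 153 TPM. The shared 0 h library held 219.6 TPM, the other untrained 0 h libraries 204 and 199 TPM, and the other trained 0 h libraries both 207 TPM. Every 0 h library was thus above every sedentary one, and the same holds without the shared library. The log2 fold change was 0.51 ± 0.053 (SE) in untrained muscle (limma adjusted p = 8.91e-06), 0.54 ± 0.053 in trained muscle (limma adjusted p = 5.76e-06) and 0.51 ± 0.045 in the joined libraries (limma adjusted p = 1.16e-06). Without the shared library it was 0.47 in untrained and 0.51 in trained muscle (limma adjusted p = 7.40e-05 and 4.09e-05). At 6 h untrained muscle held 154, 162 and 155 TPM, just above the sedentary range, with a log2 fold change of 0.11 that did not pass (limma adjusted p = 0.218). Trained muscle at 6 h held 151, 139 and 146 TPM, inside that range. Hnrnpa2b1 shares 638 exonic bases with Cbx3 on the opposite strand, a gene with a mean of 13.8 TPM, and the library kit did not mark strand.

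Srsf7, an SR protein with a zinc knuckle that also helps mRNA export, rose by nearly the same amount from a much lower level. It stood at 9.17, 8.96 and 10.7 TPM in sedentary muscle. The shared 0 h library held 14.8 TPM, the other untrained 0 h libraries 13.4 and 14.7 TPM, and the other trained ones 13.3 and 14.6 TPM. Again no 0 h library overlapped the sedentary range. The log2 fold change was 0.55 ± 0.078 in untrained (limma adjusted p = 0.000238), 0.54 ± 0.078 in trained (limma adjusted p = 0.00025) and 0.54 ± 0.069 in joined muscle (limma adjusted p = 6.63e-05). Without the shared library it was 0.52 and 0.51 (limma adjusted p = 0.00288 and 0.00312). Srsf7 was near the fold threshold and passed it when 1 library was left out. This was so without sedentary replicate 3, with 0.63 in untrained, 0.62 in trained and 0.61 in joined muscle, without untrained 0 h replicate 2, with 0.59 in untrained muscle, and without trained 0 h replicate 2, with 0.59 in trained muscle.

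Unlike Hnrnpa2b1, Srsf7 was also higher at 6 h in untrained muscle. Its levels there were 11.7, 13.5 and 14.6 TPM, a log2 fold change of 0.44 ± 0.078 against sedentary muscle (limma adjusted p = 0.0016). Trained muscle at 6 h held 11.4, 11.2 and 11.5 TPM, with a log2 fold change of 0.24 ± 0.078 that did not pass (limma adjusted p = 0.0657). With median-of-ratios scaling and with rescaled TPM, trained 6 h Srsf7 did pass, both times at 0.26 (limma adjusted p = 0.00453 and 0.0172). All libraries of both 6 h groups lay above the sedentary ones. The difference itself, trained minus untrained at 6 h, was -0.20 ± 0.078 and did not pass (limma adjusted p = 0.167). By 72 h its mean was 9.66 ± 0.33 TPM without and 9.64 ± 0.245 TPM with training, next to 9.62 ± 0.976 TPM in sedentary muscle (mean ± SD, n = 3).

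Srsf3, the smallest SR protein and an adaptor for mRNA export, had the largest change of all 34 regulators at 0 h without passing the test. Sedentary libraries held 31.4, 27.2 and 31.9 TPM. The shared 0 h library held 47.2 TPM, the other untrained ones 59.2 and 50.9 TPM, and the other trained ones 38.0 and 54.3 TPM. All 5 were above the sedentary range. The log2 fold changes were 0.78 ± 0.29 in untrained, 0.60 ± 0.29 in trained and 0.70 ± 0.26 in joined muscle (limma adjusted p = 0.112, 0.192 and 0.0928). Without the shared library they were 0.86 and 0.59 in untrained and trained muscle (limma adjusted p = 0.207 and 0.336). All groups share an estimate of the spread, and 1 library of another group weighs on it. Untrained 6 h replicate 2 held 13.8 TPM of Srsf3, while its group mates held 40.6 and 45.2 TPM. A fit without that library was added after the data had been seen. Leaving out its low value lowers the spread of Srsf3 and raises the untrained 6 h mean by construction. The passes in this fit are therefore no independent support for a rise. With that library left out everywhere, Srsf3 passed both thresholds in untrained, trained and joined 0 h muscle (limma adjusted p = 0.000376, 0.00327 and 0.000558), with the same fold changes. It then also passed the test at 6 h in untrained muscle, with a log2 fold change of 0.50 (limma adjusted p = 0.0271, against -0.03 with all libraries), and in trained muscle, where its levels of 42.8, 39.4 and 42.3 TPM gave a log2 fold change of 0.46 (limma adjusted p = 0.0181, against 0.365 with all libraries).

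Srsf5, the most abundant SR gene, went the other way. It stood at 56.6, 50.8 and 60.4 TPM in sedentary muscle, at 41.0 TPM in the shared 0 h library, at 43.4 and 42.9 TPM in the other untrained 0 h libraries and at 36.8 and 56.1 TPM in the other trained ones. Trained 0 h replicate 3, with 56.1 TPM, lay inside the sedentary range, and the other 4 libraries lay below it. The log2 fold changes of -0.39 ± 0.12 in untrained, -0.34 ± 0.12 in trained and -0.35 ± 0.11 in joined muscle did not pass as deposited (limma adjusted p = 0.0692, 0.095 and 0.0514). With median-of-ratios scaling, which sets the typical gene to no change, they were -0.49, -0.48 and -0.47 and passed the test (limma adjusted p = 0.0175, 0.0227 and 0.00895). As deposited but with the shared library left out, they were -0.37 and -0.29 in untrained and trained muscle (limma adjusted p = 0.20 and 0.251). At 6 h the means of 54.8 ± 5.36 TPM without training and 54.8 ± 2.82 TPM in trained muscle were close to the sedentary mean of 55.9 ± 4.86 TPM (mean ± SD, n = 3).

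**Figure D2:**
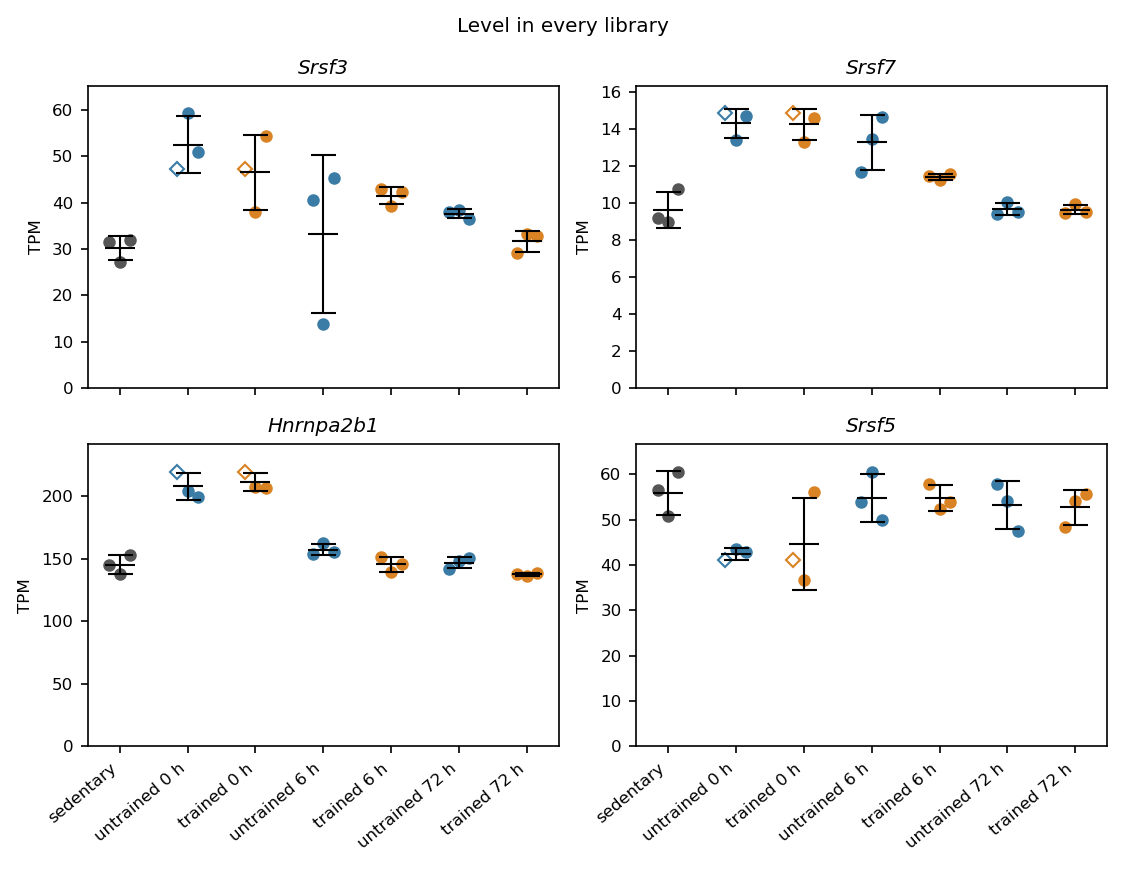
TPM (y axis, from 0) of Srsf3, Srsf7, Hnrnpa2b1 and Srsf5 in every library by group (x axis), with sedentary in grey, untrained in blue and trained in orange. Open diamonds are the shared library, drawn in both 0 h groups, and bars are the mean ± SD of 3 columns. Hnrnpa2b1 is highest at 0 h, Srsf7 stays above sedentary at 6 h, the low Srsf3 point at 13.8 TPM is untrained 6 h replicate 2, and the Srsf5 point at 56.1 TPM is trained 0 h replicate 3.

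The remaining SR genes moved less. Srsf6 rose in trained 0 h muscle, with a log2 fold change of 0.33 ± 0.079 (limma adjusted p = 0.0158), and in the joined libraries, with 0.29 ± 0.071 (limma adjusted p = 0.016), and it was at 0.26 ± 0.079 in untrained muscle (limma adjusted p = 0.0521). Srsf2, which stays in the nucleus and follows Srsf5 and Srsf3 in abundance, held 21.6, 29.1 and 23.6 TPM in sedentary muscle and between 24.4 and 27.6 TPM in the 0 h libraries, inside the sedentary range. Of the 10 tested SR genes, 2 passed in the joined 0 h libraries, both higher, next to 10.5% of all genes. The median log2 fold change of the 10 was 0.19.

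Among the 20 hnRNP genes, 7 passed in the joined 0 h libraries, all higher, next to 10.5% of all genes. The median log2 fold change over the family was 0.19. Hnrnpa3, a close relative of Hnrnpa2b1, rose from 40.8, 38.5 and 41.8 TPM to 52.9 TPM in the shared library, 51.8 and 49.2 TPM in the other untrained libraries and 52.5 and 50.2 TPM in the other trained ones. The groups did not overlap, and the log2 fold change was 0.34 ± 0.068 in untrained, 0.36 ± 0.068 in trained and 0.34 ± 0.060 in joined muscle (limma adjusted p = 0.0049, 0.00324 and 0.00135). Without the shared library it was 0.32 in untrained and 0.34 in trained muscle (limma adjusted p = 0.0333 and 0.019). Hnrnpab had a log2 fold change of 0.30 ± 0.064 and Hnrnpc, which binds runs of uridine, of 0.27 ± 0.073 in the joined libraries (limma adjusted p = 0.0068 and 0.024). Hnrnpf and Hnrnph2, which bind runs of guanine, were at 0.30 ± 0.085 and 0.24 ± 0.058, and Hnrnpll was at 0.24 ± 0.065 (limma adjusted p = 0.0341, 0.0131 and 0.027). The deposited 0 h groups had 3 regulators past the test in untrained and 4 in trained muscle once the shared library was left out. The share of all genes past the test in these fits is not given here.

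The values of 3 hnRNP genes are uncertain, since annotated copies elsewhere in the genome match them at 95% identity or more over at least 300 bases. Hnrnpa3 has 28 such copies, of which the 26 in the table held 25.1 to 44.0 TPM per library, Hnrnpf has 8, all in the table, with 23.5 to 34 TPM, and Hnrnpa1 has 11, of which the 10 in the table held 20.4 to 32.0 TPM. Those of Hnrnpa1 include Lztfl1, a gene of its own with a matching stretch in an annotated transcript, so that its sum is not of copies alone. With the copies added, Hnrnpa3 had a log2 fold change of 0.37 ± 0.065 in the joined 0 h libraries (limma adjusted p = 0.00142) and Hnrnpf one of 0.28 ± 0.086 (limma adjusted p = 0.0462). Copies of Srsf3 summed to at most 1.68 TPM.

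Hnrnpk and Hnrnph1, the most abundant hnRNP genes after Hnrnpa2b1, varied widely between replicates. Hnrnpk, a protein with KH domains that binds runs of cytidine, held 44.6, 80.6 and 64.1 TPM in sedentary muscle, 87.5 TPM in the shared library, 76.4 and 64.3 TPM in the other untrained 0 h libraries and 80.3 and 81.5 TPM in the other trained ones. Its joined log2 fold change of 0.34 ± 0.24 did not pass (limma adjusted p = 0.384). Hnrnph1 stood at 37.8 and 39.2 TPM in sedentary replicates 1 and 3 but at 93.4 TPM in replicate 2, and at 31.5 and 35.0 TPM in trained 72 h replicates 1 and 3 but at 92.9 TPM in replicate 2. In the other groups it lay between 34 and 56.1 TPM. Its pooled SD of 0.44 on the log2 scale was the largest of all regulators, followed by 0.37 for Srsf3 and 0.35 for Hnrnpk.

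The CLK kinases had means of 4.98 to 28.1 TPM over the 21 columns, and only Clk1 passed the test, at 0 h. Clk1, whose own transcripts are partly kept in the nucleus with introns retained, stood at 16.9, 15.6 and 19.0 TPM in sedentary muscle. It stood at 22.7 TPM in the shared 0 h library, at 17.4 and 21.9 TPM in the other untrained libraries and at 22.2 and 23.0 TPM in the other trained ones. Trained 0 h muscle lay wholly above the sedentary range, with a log2 fold change of 0.39 ± 0.093 (limma adjusted p = 0.0144), whereas untrained 0 h replicate 2 lay inside it and the untrained change of 0.26 ± 0.093 did not pass (limma adjusted p = 0.103). The difference between trained and untrained 0 h muscle was 0.14 ± 0.093 and did not pass (limma adjusted p = 1.00), and the shared library stands on both sides of it. In the joined libraries Clk1 rose by 0.31 ± 0.087 (limma adjusted p = 0.0301), and it passed the test in 6 of 16 alternative settings. By 6 h its levels were 16.2, 16.5 and 14.6 TPM without training and 15.2, 15.6 and 15 TPM in trained muscle, in the lower part of the sedentary range or just under it.

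Clk2, Clk3 and Clk4 did not pass the test in any comparison. Clk2 was the lowest CLK gene, with 4.44, 5.47 and 5.11 TPM in sedentary muscle and 4.91 to 6.13 TPM at 0 h, overlapping groups with a joined log2 fold change of 0.08 ± 0.093. Clk3 was the highest and the most variable, with 18.8, 34.9 and 25.3 TPM in sedentary and 24.4 to 41.0 TPM in 0 h muscle, a joined log2 fold change of 0.29 ± 0.20. It shares 823 exonic bases with Edc3 on the other strand, a gene of 2.53 TPM. Clk4, a close relative of Clk1, was flat at 0 h, with 20.7, 18.4 and 22.3 TPM in sedentary muscle and 19.4 to 21.1 TPM in the 0 h libraries, a joined log2 fold change of -0.02 ± 0.067.

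**Figure D3:**
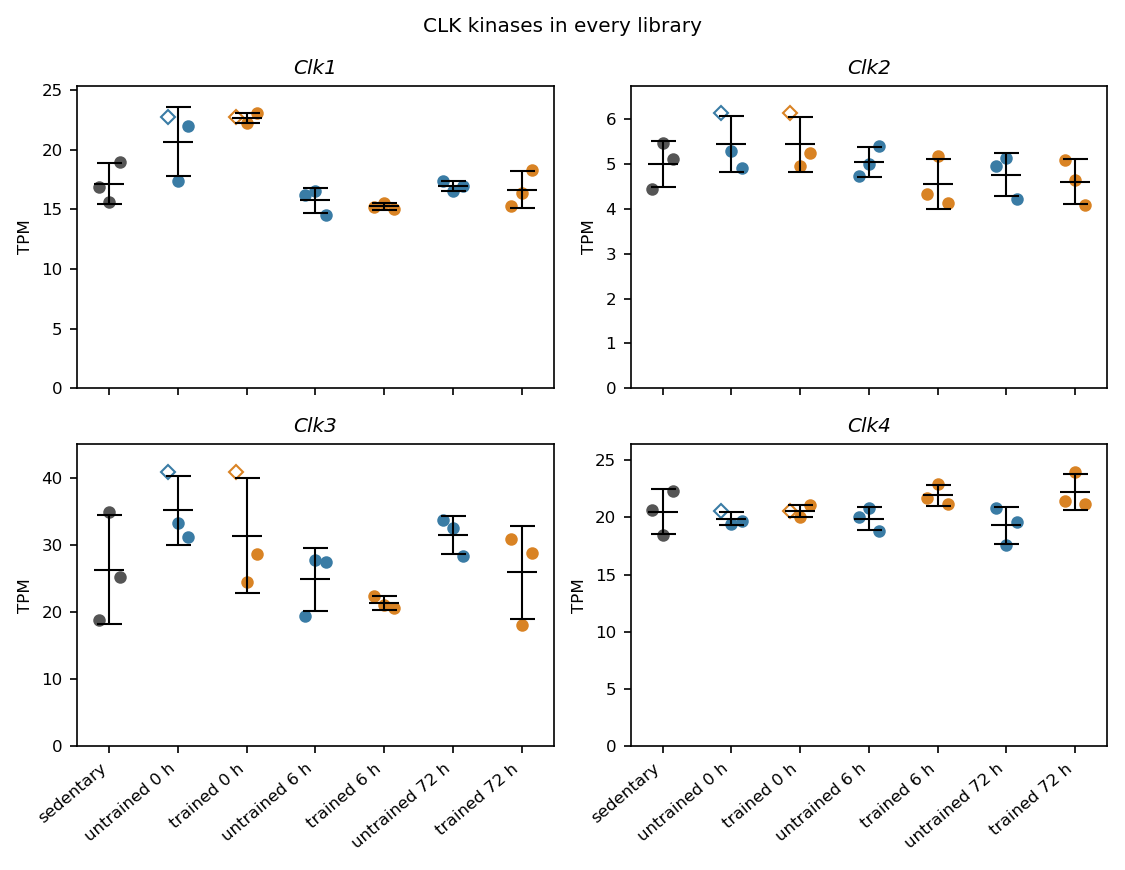
TPM (y axis, from 0) of the 4 CLK genes in every library by group (x axis), with sedentary in grey, untrained in blue and trained in orange. Open diamonds are the shared library, drawn in both 0 h groups, and bars are the mean ± SD of 3 columns. Clk1 is at 17.4 to 23.0 TPM at 0 h and at 14.6 to 16.5 TPM at 6 h, Clk3 scatters within groups, and Clk4 stays between 17.6 and 24.0 TPM throughout.

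All regulators together summed to 874 ± 50.2 TPM in sedentary muscle, 1025 ± 43.1 TPM in untrained 0 h and 1049 ± 43.2 TPM in trained 0 h muscle (mean ± SD, n = 3, shared library in both). The lowest 0 h library, at 997 TPM, was above the highest sedentary one, at 914 TPM. In the joined libraries, 14 of 34 regulators were higher than sedentary muscle without overlap and 0 were lower, while 17.3% of all tested genes were higher without overlap. These counts depend on the scale, and the share of the mitochondrial genome was lower at 0 h than in sedentary muscle. With median-of-ratios scaling, the median of all genes in the joined comparison moved by -0.11. There, 4 regulators passed higher (Hnrnpa2b1, Hnrnpa3, Hnrnph2 and Srsf7) and 1 lower (Srsf5), beside 5.02% and 2.19% of all genes. On the same scale, the untrained 0 h group had 4 regulators higher and 1 lower, beside 4.09% and 1.67% of all genes. The trained 0 h group had 3 higher and 1 lower, beside 3.93% and 1.41%. With TPM rescaled after leaving out the mitochondrial genome and the 10 highest genes, the joined median of all genes moved by -0.15. Of the regulators, 3 passed higher (Hnrnpa2b1, Hnrnpa3 and Srsf7) and 2 lower (Hnrnph3 and Srsf5), beside 3.61% and 3.18% of all genes. Rescaled, the untrained 0 h group had 2 regulators higher and 2 lower, beside 2.82% and 2.64% of all genes. For the trained 0 h group these were 2 higher and 1 lower, beside 2.93% and 2.10%. Clk1, with 0.20 and 0.15, did not pass under these scalings. Hnrnpa2b1 was at 0.40 and 0.35 and Srsf7 at 0.42 and 0.39.

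**Figure D4:**
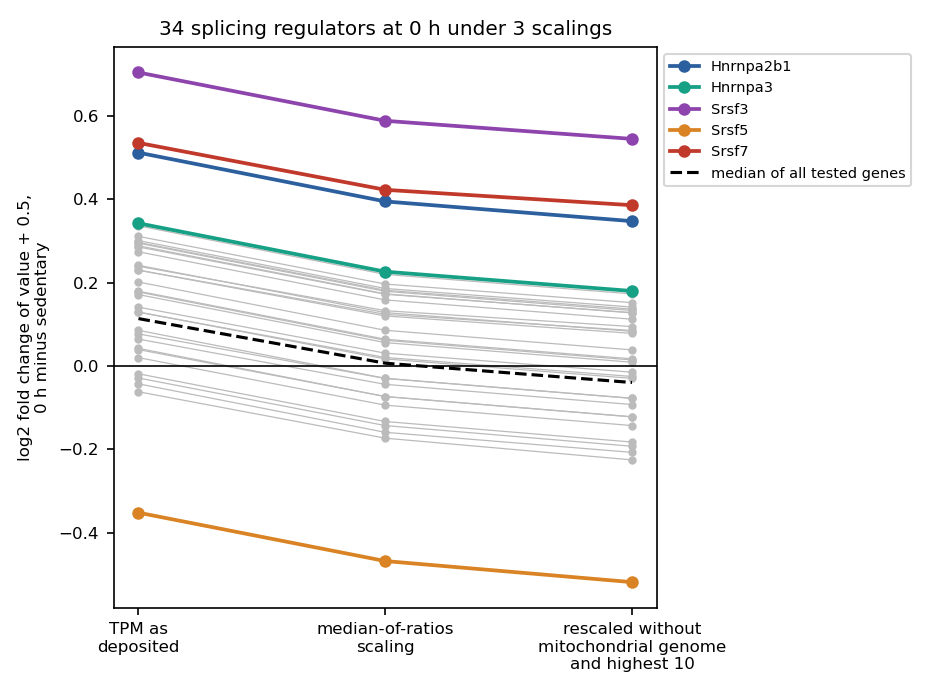
Log2 fold change (y axis) of the 34 tested regulators in the joined 0 h libraries minus sedentary muscle, under TPM as deposited, median-of-ratios scaling and TPM rescaled without the mitochondrial genome and the 10 highest genes (x axis). Each line is 1 gene, coloured for the 5 named ones, and the dashed line is the median of all tested genes, which drops from 0.11 to 0.01 and -0.04. The order of the genes stays nearly fixed while all lines move down together, and Srsf5 goes from -0.35 to -0.52.

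Markers of other cells were measured beside these changes. Macrophage markers, 7 of 8 tested, summed to 54.0 to 59.6 TPM per library at 0 h against 42.8 to 47.2 TPM in sedentary muscle, with 0 of 7 past the test. The satellite cell list summed to 10.7 to 17.5 TPM at 0 h against 5.82 to 7.95 TPM in sedentary muscle. Of its 5 genes only Sdc4 passed the filter and rose, with 9.48 to 16.3 TPM at 0 h against 4.02 to 6.16 TPM. Pax7 was at 0.166 to 0.276 TPM at 0 h against 0.276 to 0.346 TPM, and Myf5 at 0.348 to 0.560 TPM against 0.525 to 0.553 TPM. Calcr and Vcam1 overlapped sedentary muscle. Of 6 endothelial markers only Kdr changed and fell. Of 10 muscle fibre markers, Acta1, Myh1 and Myh4 rose. Fibro-adipogenic, adipocyte and red blood cell lists had 0 genes past the test. The part of these cells in the changes of the regulators was not tested.

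At 6 h, Srsf7 and Hnrnpa3 were still higher in untrained muscle, and Hnrnpc and Hnrnpf were higher in both groups. However, 0 of 34 regulators passed the thresholds of the study in untrained or trained muscle, where 4.42% and 3.85% of all genes did (limma, with 9 and 5 regulators at an unadjusted p below 0.05, and 21.8% and 24.1% of all genes). Without the fold threshold, 4 rose in untrained muscle (Srsf7, Hnrnpf, Hnrnpc and Hnrnpa3) and 3 in trained muscle (Hnrnpc, Hnrnpf and Hnrnph2), and 0 fell. Of all genes, 6.68% and 5.72% were higher by this rule and 2.79% and 4.66% lower. These calls depend on the fit. With only the compared groups in it, 0 regulators passed in either 6 h group, and with rescaled TPM Hnrnpc and Hnrnpf did not pass in untrained muscle (limma adjusted p = 0.0527 and 0.0974), which left 2 there. Without untrained 6 h replicate 2, Hnrnpa3, Hnrnpc and Hnrnpf did not pass in untrained muscle (limma adjusted p = 0.0713, 0.0931 and 0.166). Hnrnpc and Hnrnpf also did not pass there without sedentary replicate 1 or 2 or untrained 6 h replicate 3. Srsf7 in untrained 6 h muscle passed in 14 of 15 alternative settings. The median of the regulators was 0.07 in both 6 h groups, that of all genes 0.01 and -0.01. Hnrnpc held 25.5, 28.5 and 31.9 TPM in sedentary muscle, 30.7, 36.8 and 39.3 TPM in untrained 6 h and 37.1, 33.8 and 36.8 TPM in trained 6 h muscle. Only trained 6 h muscle lay wholly above the sedentary range. The log2 fold changes of Hnrnpc were 0.31 ± 0.082 and 0.33 ± 0.082 (limma adjusted p = 0.0264 and 0.0185). Hnrnpf was at 0.34 ± 0.097 and 0.32 ± 0.097 (limma adjusted p = 0.0406 and 0.0483), and the trained change did not pass with its copies added (limma adjusted p = 0.0735) or with the shared 0 h library counted once in the spread (limma adjusted p = 0.0514). Hnrnpa3 held 46.1, 54.2 and 48.0 TPM in untrained 6 h muscle, all above the sedentary libraries, with a log2 fold change of 0.29 ± 0.068 (limma adjusted p = 0.0135). In trained 6 h muscle it was at 0.08 ± 0.068, and the difference between the groups, -0.21 ± 0.068, did not pass (limma adjusted p = 0.0961). With its copies added, Hnrnpa3 was at 0.22 ± 0.072 in trained 6 h muscle (limma adjusted p = 0.0597), and the difference between the groups was -0.06 (limma adjusted p = 0.724). In untrained 6 h muscle, the macrophage markers Cd68 and Csf1r were higher than in sedentary muscle, and their part was not tested. Kdr was lower there as well, and in trained 6 h muscle Col1a1 and Col3a1 were lower and Myh1 higher.

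At 72 h no regulator passed the test with or without the fold threshold. Of all genes, 0.00846% passed in untrained muscle by either rule, and in trained muscle 0.169% passed with and 0.254% without the fold threshold. By an unadjusted p below 0.05, the limma counts were 0 of 34 regulators in untrained and 2 in trained muscle, with 5.77% and 11.7% of all genes. Hnrnpa2b1 stood at 142, 148 and 151 TPM without training and at 138, 136 and 139 TPM in trained muscle, and Srsf3 at 37.9, 38.4 and 36.5 TPM and at 29.1, 33.2 and 32.7 TPM. The untrained Srsf3 libraries lay above the sedentary range, with a log2 fold change of 0.32 ± 0.29 (limma adjusted p = 0.961).

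**Figure D5:**
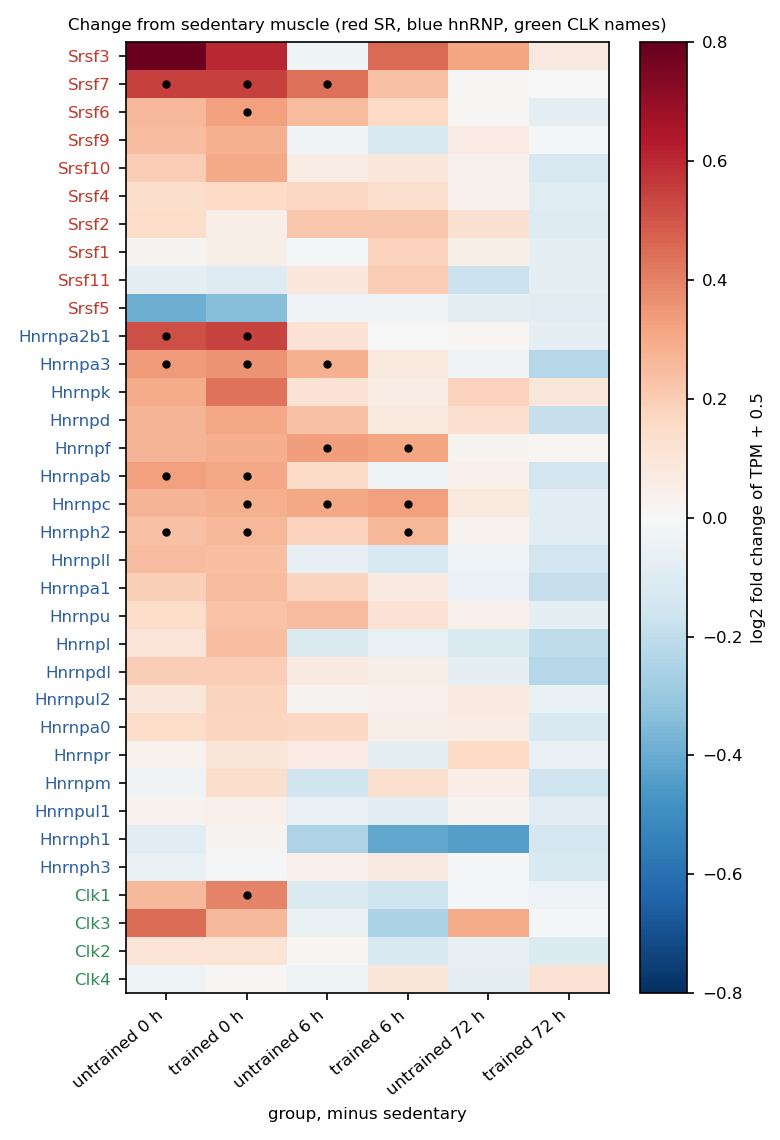
Log2 fold change of TPM + 0.5 from sedentary muscle (colour, red higher and blue lower) of the 34 tested regulators (y axis, SR names in red, hnRNP in blue, CLK in green) in the 6 exercised groups (x axis). Black dots mark an adjusted p below 0.05. Dots are confined to 0 h and 6 h, with 5, 8, 4 and 3 in the first 4 columns, and 0 at 72 h.

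Trained and untrained muscle were compared directly at each time. With no group of trained mice without the bout, a standing effect of training cannot be told apart from an altered response to the bout. None of the 34 passed by either rule at any of the 3 times on the TPM as deposited. At 6 h, Hnrnpm passed without the fold threshold under the other scalings, at 0.33 with median-of-ratios scaling and 0.38 with rescaled TPM, against 0.29 as deposited (limma adjusted p = 0.0172, 0.00674 and 0.0908). Of all genes, 0%, 2.01% and 0.245% passed both thresholds, and 0%, 4.56% and 0.415% passed without the fold threshold. The limma counts by an unadjusted p below 0.05 were 0, 5 and 6 of 34, with 1.21%, 18.3% and 15% of all genes. At 0 h the shared library stands on both sides and draws the difference towards 0 by construction. With it left out of both groups, 2 libraries remained on each side, 0 regulators and 0% of all genes passed, and an unadjusted p below 0.05 was reached by 1 regulator and 4.47% of all genes (limma). Log2 differences at 6 h reached from -0.21 for Hnrnpa3, or -0.06 with its copies, to 0.49 ± 0.29 for Srsf3, where untrained 6 h replicate 2 is the low library described above. At 72 h, 17 of 34 regulators were lower in trained muscle without overlap, against 24.6% of all genes, and 1 was higher. The median log2 difference was -0.12 for the regulators and -0.08 for all genes, and the mitochondrial genome took 47.4% of the TPM in trained and 43.3% in untrained 72 h muscle. With median-of-ratios scaling these medians were -0.03 and 0.00, and after rescaling they were -0.01 and 0.02.

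Other genes of the splicing machinery were listed for comparison, and 3 of them had a larger log2 fold change in the joined 0 h libraries than Srsf3. Of 33 SR-related genes and SR kinases, 5 rose in the joined 0 h libraries, where 10.5% of all genes were higher and 1.11% lower by the same rule, and 2 of them passed the fold threshold as well. Rsrp1, an arginine- and serine-rich protein, stood at 79.6, 89.0 and 99.9 TPM in sedentary muscle, 186 TPM in the shared library, 148 and 136 TPM in the other untrained 0 h libraries and 195 and 156 TPM in the other trained ones. All 0 h libraries were above all sedentary ones, and the joined log2 fold change was 0.87 (limma adjusted p = 7.11e-05). Fitted with only the compared groups, Rsrp1 did not pass in untrained 0 h muscle (limma adjusted p = 0.0601). Tra2a, which binds exonic enhancers together with SR proteins, rose from 4.92, 5.88 and 6.60 TPM to between 9.77 and 10.6 TPM, a joined log2 fold change of 0.77 (limma adjusted p = 0.000129). Its paralogue Tra2b passed both thresholds in untrained 0 h muscle alone, with 14.9, 16.1 and 16.8 TPM against 10.2, 9.78 and 11.4 TPM in sedentary muscle. In trained 0 h muscle, with 14.9, 14.1 and 15.5 TPM, it passed the test below the fold threshold, at 0.49 (limma adjusted p = 0.00235). The same held in the joined libraries, at 0.55 (limma adjusted p = 0.000344). The untrained change of Tra2b dropped below the fold threshold under both other scalings, with log2 fold changes of 0.49 and 0.43, and also without sedentary replicate 1 or 2 or untrained 0 h replicate 2 or 3, with 0.57, 0.54, 0.58 and 0.55.

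Of 51 core spliceosome genes, 12 rose and 0 fell in the joined 0 h libraries, next to 10.5% and 1.11% of all genes. The 51 genes had a median log2 fold change of 0.18, against 0.11 over all genes. Eftud2, a GTPase of the U5 particle, was the only 1 past the fold threshold, from 5.99, 6.80 and 6.46 TPM in sedentary muscle to 11.0 TPM in the shared library, 14.4 and 11.9 TPM in the other untrained libraries and 11.4 and 10.4 TPM in the other trained ones (log2 fold change 0.82, limma adjusted p = 9.49e-05). After rescaling, Eftud2 was at 0.56 in trained 0 h muscle, below the fold threshold. Of 37 tested genes among other RNA-binding splicing regulators, 4 rose and 2 fell in the joined libraries, next to the 10.5% and 1.11% of all genes. Among them Sfpq, a protein of paraspeckles, was called in trained 0 h and untrained 6 h muscle, with 14.7, 19.2 and 21.5 TPM in the latter against 10.8, 12.8 and 11.7 TPM in sedentary muscle. In untrained and joined 0 h muscle it passed the test below the fold threshold, at 0.51 and 0.53 (limma adjusted p = 0.0227 and 0.006). Sfpq fell below a threshold in both called comparisons, trained 0 h and untrained 6 h, after rescaling, with log2 fold changes of 0.44 and 0.55. It was also below the fold threshold at 0.48 in trained 0 h muscle with median-of-ratios scaling, and did not pass in untrained 6 h muscle with only the compared groups in the fit (limma adjusted p = 0.148). In trained 0 h muscle it also missed the fold threshold without sedentary replicate 1 (0.55), trained 0 h replicate 1, the shared library (0.57), or replicate 3 (0.58), and in untrained 6 h muscle without sedentary replicate 1 (0.55), untrained 6 h replicate 2 (0.58) or replicate 3 (0.50). Of 16 genes of NMD and the exon junction complex, 2 rose (Rbm8a and Upf1) and 0 fell in the joined libraries, next to the same 10.5% and 1.11%. At 6 h, 4 SR-related genes rose and 2 fell in untrained muscle, and 0 rose and 1 fell in trained muscle, while the core spliceosome had 4 rising and 0 falling genes in untrained and 3 rising and 2 falling genes in trained muscle. Of the other RNA-binding regulators 6 rose and 0 fell in untrained and 2 rose and 1 fell in trained 6 h muscle, and of the NMD list 1 rose and 0 fell and 2 rose and 1 fell. Of all genes, 6.68% were higher and 2.79% lower in untrained and 5.72% higher and 4.66% lower in trained 6 h muscle. At 72 h the 4 lists had 0 genes past the test in comparison with sedentary muscle.

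The SR kinase Srpk2 was the only listed gene that differed between trained and untrained muscle past both thresholds. At 6 h it stood at 6.89, 10.7 and 8.63 TPM without training and at 5.26, 3.75 and 5.18 TPM in trained muscle, next to 5.25, 4.47 and 4.81 TPM in sedentary muscle. The untrained libraries lay above both other groups. The log2 difference, trained minus untrained, was -0.81 (limma adjusted p = 0.0116), and untrained muscle was higher than sedentary muscle by 0.77 (limma adjusted p = 0.00847). The difference between trained and untrained muscle did not pass without untrained 6 h replicate 2, at -0.67 (limma adjusted p = 0.0704), or without trained 6 h replicate 2, at -0.67 (limma adjusted p = 0.055). With only the compared groups in the fit, neither Srpk2 comparison passed (limma adjusted p = 0.23 and 0.106).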

How the data were processed

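Before deposit, the authors aligned the reads of bulk quadriceps libraries (an unstranded TruSeq kit) to GRCm39 with STAR 2.7.9 and made TPM values per gene with salmon 1.5.0, versions as in the submitters' processing notes. The annotation release was not given in the sources used here. TPM carries no read counts, so that the depth of a library is unknown and precision rests on 3 libraries per group. Whether these came from separate mice is not stated in the labels, and p-values measure the spread between libraries.

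From the deposited TPM, log2(TPM + 0.5) was computed, and fold changes are on this scale, which understates low genes. Genes averaging 1 TPM or more over the 21 columns entered limma 3.58.1 (R 4.3.3) with group means, a variance trend and 14 residual degrees of freedom, where the library deposited in both 0 h groups counts as 2 columns (the joined fit, with 20 distinct libraries in 6 groups, also has 14), and p-values were adjusted within each of 10 comparisons (Benjamini-Hochberg). The procedure was tested on simulated data. Alternatives were other pseudocounts (0.1 and 1), no filter, a mean of at least 5 TPM, both scalings, only the groups compared, the replicate number as a block, no fold threshold, and leaving out each library. Positions, transcript classes and overlaps came from GENCODE vM39 on GRCm39, copies from BLAST 2.17.0, and promoters from RefSeq on GRCm38.p6.

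Members and lists were chosen with earlier results of these data known. Named with values are called regulators, the CLK genes, the 3 highest Srsf and the 3 highest Hnrnp genes, and at most 4 called genes per list and comparison. Others are named as picked after seeing values. Added after seeing the data were the counts without a fold threshold under each alternative, the fit without untrained 6 h replicate 2, the alternatives for Srsf3 and Srsf5, the copies, and the shared library counted once in the spread.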

Additional observations from a re-analysis of the deposited data

Results flagged for a closer look

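Among the 5 distinct 0 h libraries, 3 of the regulators had 1 library far from the others, by Dixon's criterion, which chance meets in about 1 in 20 groups. Clk1 was low in untrained 0 h replicate 2, at 17.4 TPM, inside the sedentary range of 15.6 to 19.0 TPM. Hnrnpab was high in untrained 0 h replicate 1, the shared library, at 37.1 TPM, where the other 4 libraries held 32.4 to 33.7 TPM. Srsf9 was high in the same library, at 5.96 TPM, where the others held 4.75 to 5.02 TPM. Srsf9 shares 839 exonic bases with Gatc on the opposite strand, a gene with a mean of 11.9 TPM, and the library kit did not mark strand. Without the shared library, Hnrnpab did not pass the test in the deposited 0 h groups, with log2 fold changes of 0.27 in untrained and 0.25 in trained muscle.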

How the results depend on the processing

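Depth is unknown, and 3 libraries per group set the precision. Without a fold threshold, the counts of regulators called in place of 0 were 5 (untrained 0 h), 8 (trained 0 h), 10 (joined 0 h), 4 (untrained 6 h) and 3 (trained 6 h). With only the groups compared in the fit, Srsf3 was called in untrained and joined 0 h muscle (1 and 1 regulators), and the counts without a fold threshold were 3 in untrained 0 h, 2 in trained 0 h, 0 in untrained 6 h and 0 in trained 6 h muscle. Without untrained 6 h replicate 2, Srsf3 made 1 called regulator in untrained, 1 in trained and 1 in joined 0 h muscle. With median-of-ratios scaling, the counts without a fold threshold were 4 in trained 0 h, 5 in joined 0 h, 8 in untrained 6 h, 5 in trained 6 h and 1 (Hnrnpm) in trained against untrained 6 h muscle. Of all genes on this scale, 8.01% were higher and 4.32% lower in untrained 6 h and 8.79% and 5.16% in trained 6 h muscle. For trained against untrained 6 h muscle these shares were 3.31% and 3.11%. With TPM rescaled, the counts of regulators were 3, 5, 2 and 1 in trained 0 h, joined 0 h, untrained 6 h and trained against untrained 6 h muscle. Rescaled, 5.10% of all genes were higher and 5.55% lower in untrained 6 h muscle, and 3.84% and 1.85% in trained against untrained 6 h muscle. The shares of all genes at 0 h on both scales are given above, beside the counts of regulators. Leaving the shared library out gave 3 in untrained and 4 in trained 0 h muscle. Leaving out 1 library at a time gave 0 to 1 called regulators in untrained, trained and joined 0 h muscle, and without a fold threshold 3 to 8 in untrained 0 h, 3 to 11 in trained 0 h, 4 to 11 in joined 0 h, 1 to 8 in untrained 6 h, 0 to 4 in trained 6 h and 0 to 2 in trained against untrained 6 h muscle. The called regulator was Srsf7 without sedentary replicate 3 or without replicate 2 of the 0 h group compared. Counts against sedentary muscle were lowest without sedentary replicate 1 or 2 and highest without replicate 3 (for joined 0 h muscle 4, 4 and 11). Low counts also came without replicate 1 of the untrained 0 h (3) or trained 0 h (4) group, untrained 6 h replicate 2 or 3 (2 each) and trained 6 h replicate 1 or 3 (0 and 1), and higher ones without untrained 6 h replicate 1 (8, and 2 against trained muscle). The cause of these moves was not tested. No log2 fold change of a regulator past the test, or of Srsf3 and Srsf5 at 0 h, reversed, and Srsf3 at untrained 6 h went from -0.03 to 0.50 without untrained 6 h replicate 2. With the shared library counted once in the spread of the 6 h and 72 h comparisons, 4 and 2 regulators passed without a fold threshold in untrained and trained 6 h muscle, where Hnrnpf was lost in the latter. The replicate numbers did not pair the libraries (median correlation of deviations 0.018 over 62 same-numbered pairs, 4 of them above 0.1). With the replicate block, 4, 8, 4 and 2 regulators passed without a fold threshold in untrained 0 h, trained 0 h, untrained 6 h and trained 6 h muscle. It ended the call of Hnrnph2 in untrained 0 h and of Hnrnpf in trained 6 h muscle and no other. For the fits with only the compared groups, a library left out or counted once, or the replicate block, shares of all genes are not given. Whether the counts of regulators moved with those of all genes was not tested.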
